A study of Hydra vulgaris with 5 samples.

Results

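Antimicrobial peptides and innate defence genes of the freshwater polyp Hydra vulgaris were followed through 5 single-cell libraries, taken as the 176 entries of 46156 in the deposited tables whose description named one of 8 detected families. These were 12 arminin, 5 periculin, 7 Kazal-type protease inhibitor, 30 rhamnose-binding lectin, 2 Toll-like receptor, 11 NF-kappaB-related, 6 interferon regulatory factor (IRF) and 103 TNF receptor-associated factor (TRAF) entries. No entry was described as hydramacin, lysozyme or MyD88. Membership rests on the description of each entry, not on its counts. Of the 176 entries, 27 had 0 counts in every library, 111 had 1 to 49 counts over the 5 libraries and 38 had at least 50. The 38 are described by name, as are the entry with most counts among the periculins and the one among the Toll-like receptors.

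All libraries came from strain 105. Both hypostome libraries, hypostome 1 and hypostome 2, hold cells of the head tip around the mouth, and 1 library each holds regenerating hypostome at 0 h, 4 h and 12 h after bisection of the polyp. No group carried a transgene, drug or mutation according to the labels, and the number of animals per library, their age and whether animals were pooled are not given in the sources used here. An entry described as head-specific KS1 (Sc4wPfr_661.g19812), a gene known from the Hydra head, had 4339 and 3525 CPM (counts scaled to a library total of 1000000) in the hypostome libraries and 272, 111 and 24.6 CPM at 0, 4 and 12 h. Cells were dissociated with the protease Pronase E, and transcript 3′ ends were sequenced on the Bio-Rad SureCell droplet system, in which each droplet's barcode stands for a cell. The spread between the hypostome libraries may be technical, since nothing says that they came from separate animals, and no time point has a second library.

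Hydra has no adaptive immune system and no migratory blood cells, and its epithelial cells secrete peptides that kill or select bacteria on and in the polyp. Arminins and periculins are such peptides of Hydra, arminins being known from the endodermal epithelium, and Kazal-type inhibitors are small secreted proteins that block serine proteases. In animals, Toll-like receptors pass a microbial signal through MyD88 and TRAF adaptors to NF-kappaB, a transcription factor held in the cytoplasm by inhibitors until a kinase complex releases it. Rhamnose-binding lectins are sugar-binding proteins studied mostly in fish eggs and skin, where they bind bacteria. IRFs are transcription factors that in vertebrates switch on interferon-response genes.

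The libraries differed most in how many genes a barcode carried. They held 362790 to 2713553 counts in 1008 to 4411 barcodes. At least 200 genes were found in 110 and 168 hypostome barcodes, in 2332 and 2782 barcodes of 0 h and 4 h, and in 64 of 12 h, so that barcodes below this limit held 62.3% and 72.3%, 11.7% and 8.04%, and 94.1% of the counts. The 12 h library therefore stands apart, and calls between the tissues are given with and without it. Levels below are CPM over all barcodes unless a limit is named; 3 counts, the floor used for an entry at 0, are worth 1.11 CPM at 4 h and 8.27 CPM in hypostome 1. An entry without a description, MSTRG.22171, took 36.6% of all counts at 4 h, against 13.8% at 0 h and 15.5% and 17.7% in the hypostome libraries. Barcodes carry running numbers in the tables, so barcodes shared between libraries could not be counted.

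Arminins were the most abundant antimicrobial peptide transcripts. Summed over the 12 entries they stood at 706 CPM in hypostome 1 and 731 CPM in hypostome 2 (718 ± 17.9, SD, n = 2), at 489 CPM at 0 h, at 474 CPM at 4 h and at 7.48 CPM at 12 h. The 95% counting intervals (Clopper-Pearson, counting error only) were 622 to 798, 674 to 791, 455 to 524, 448 to 500 and 3.01 to 15.4 CPM. Scaled by the totals of all barcodes, the hypostome libraries were highest, 0 h and 4 h lay close together, and 12 h was far below the other 4. The ratio of 4 h to 0 h depended on the scaling: it was 0.969 (0.886 to 1.06) by these totals, 1.32 (1.20 to 1.44) without MSTRG.22171, and 1.62 (1.47 to 1.78) with TMM factors, which scale each library by the bulk of its entries, over barcodes of at least 200 genes. Over barcodes with at least 200 genes the order was not kept: the hypostome libraries stood at 439 and 473 CPM, 0 h at 487 CPM, 4 h at 478 CPM and 12 h at 36.2 CPM.

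**Figure D1:**
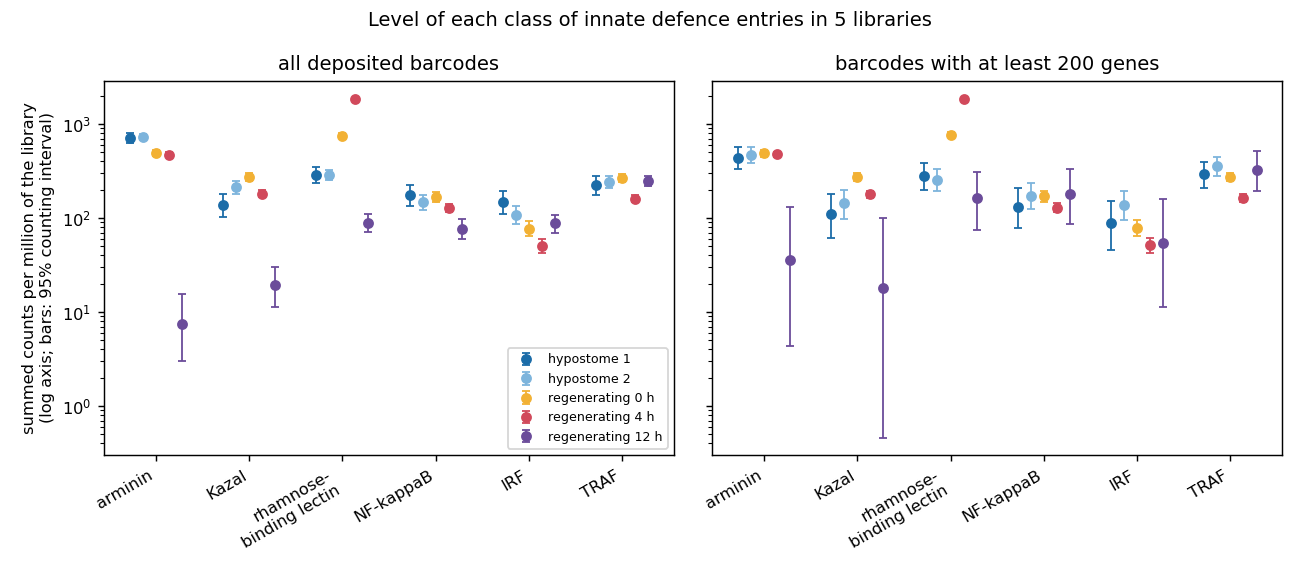
Summed level of 6 classes of innate defence entries (CPM, log axis) in each of the 5 libraries, over all barcodes (left) and over barcodes with at least 200 genes (right), with 95% counting intervals. Arminins at 12 h stand at 7.48 CPM against 474 to 731 CPM in the other libraries over all barcodes, and rhamnose-binding lectins reach 1830 CPM at 4 h.

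The hypostome level of arminins depended on which barcodes were read. Of the arminin counts, 196 of 256 in hypostome 1 and 500 of 609 in hypostome 2 lay in barcodes with under 200 genes. In that range arminins stood at 867 and 830 CPM in the hypostome libraries, against 502 (0 h) and 417 (4 h). In barcodes with 200 to below 500 genes the values were 754, 610, 573 and 501 CPM, and in barcodes with at least 500 genes 322, 418, 254 and 380 CPM. Hypostome 1 and 2 were above both 0 h and 4 h in the first 2 ranges, and in the deepest range hypostome 1 lay between them. The endodermal epithelial marker list, in which 37 of 43 entries were detected, summed to 17520 and 18111 CPM in the hypostome libraries, 17000 (0 h), 11064 (4 h) and 566 (12 h). By library totals, both the list and the arminins were far below 0 h at 12 h. At 4 h, by the same totals, the list was lower and the arminins close to their 0 h level. The median entry with at least 50 counts over both libraries was also lower at 4 h by these totals, at a log2 ratio of -0.63. The lower level of the list at 4 h also depended on the scaling. Over barcodes of at least 200 genes it stood at 16570 CPM (0 h) and 11097 CPM (4 h). The TMM factors there, by which such levels are divided, were 1.07 at 0 h and 0.650 at 4 h. With these factors the list was not lower at 4 h. The part of the list in the arminin levels was not tested. In summed counts, fewer cells of a type and less RNA per cell cannot be told apart.

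**Figure D2:**
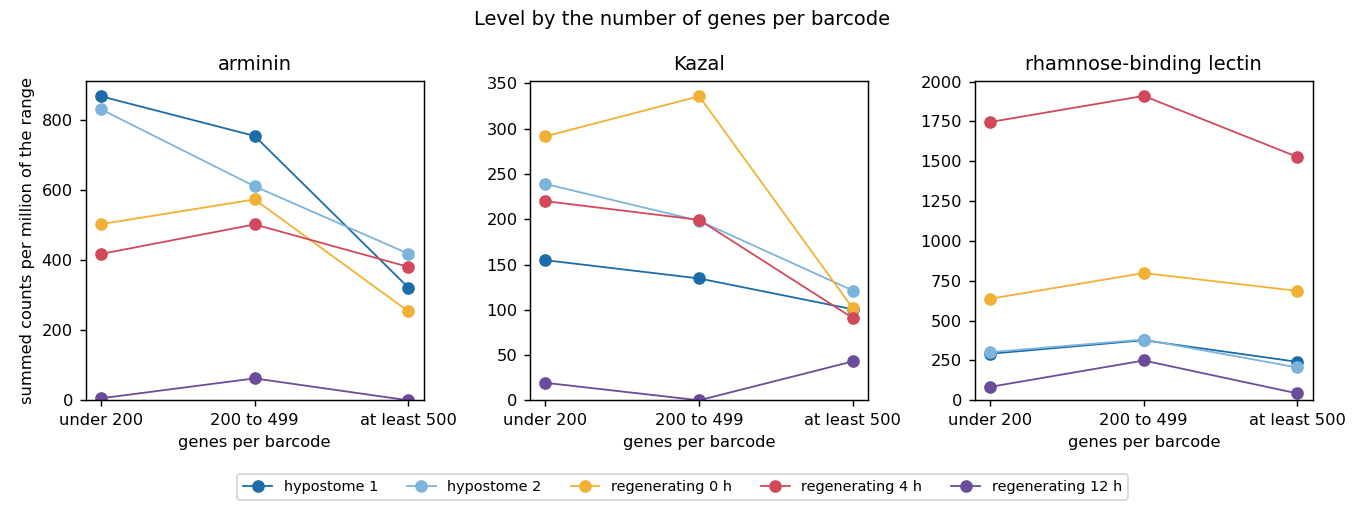
Summed level (CPM of the range) of arminin, Kazal-type inhibitor and rhamnose-binding lectin entries in barcodes with under 200, 200 to below 500 and at least 500 genes, 1 line per library. For rhamnose-binding lectins 4 h is highest (1527 to 1910 CPM) and the hypostome libraries lie below 0 h in each range, whereas the arminin lines cross.

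The most abundant member of the family was an entry described as arminin_3b (Sc4wPfr_1635.g28430), with 91, 223, 236, 523 and 0 counts in hypostome 1, hypostome 2, 0 h, 4 h and 12 h. These are 251 and 268 CPM in the hypostome libraries (259 ± 11.9, SD, n = 2), 150 (0 h) and 193 (4 h). The counts were spread over many barcodes, 393 at 4 h, where 1 barcode held 41 of the 523. Next was arminin_1c (MSTRG.5317) at 85.4 and 152 CPM in the hypostome libraries, 124 (0 h), 111 (4 h) and 1.07 (12 h), a case in which the hypostome values span the early regenerating ones. Arminin_1b (Sc4wPfr_3527.g33682) stood at 93.7 and 60.0 CPM in the hypostome libraries, 58.3 (0 h), 50.9 (4 h) and 0 (12 h).

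A second entry described as arminin_3b (MSTRG.5318) had the clearest excess in the hypostome. Its levels were 57.9 and 73.2 CPM in the hypostome libraries, 10.1 (0 h), 12.2 (4 h) and 0 (12 h), from 21, 61, 16, 33 and 0 counts. Both hypostome libraries lay above all regenerating ones, as they did in 6 of the 10 arminin entries with at least 10 counts and in 13.3% of all 21608 entries with as many. Its identifier follows that of arminin_1c (MSTRG.5317), for which the hypostome showed no such excess. The edgeR quasi-likelihood test on barcodes with at least 200 genes gave it a log2 difference, hypostome minus regenerating, of 2.09 ± 0.61 (SE) with an adjusted p of 0.331, which does not pass the threshold of 0.05. Without the 12 h library the difference was 1.88 ± 0.51 with an edgeR adjusted p of 0.0991, which does not pass it either. Without that library and over all barcodes, an alternative chosen after the data were seen, it was 2.31 ± 0.38 with an edgeR adjusted p of 0.0281.

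The remaining named arminins were arminin_3a (Sc4wPfr_1211.g17518) and a pair of neighbouring numbers on 1 scaffold described as arminin-like peptides. Arminin_3a stood at 66.2 and 64.8 CPM in the hypostome libraries, 29.2 (0 h) and 45.7 (4 h). The pair, Sc4wPfr_615.1.g17677 and Sc4wPfr_615.1.g17678, stood at 79.9 and 41.3 CPM in hypostome 1, 74.4 and 26.4 in hypostome 2, 58.9 and 30.4 at 0 h, and 36.5 and 12.9 at 4 h. By library totals both had fewer CPM at 4 h than at 0 h, by 1.62-fold (1.20 to 2.17) and 2.36-fold (1.49 to 3.76), whereas arminin_3a was 1.57-fold higher (1.11 to 2.25). With TMM factors over barcodes of at least 200 genes the ratios of the pair were 1.01 (0.741 to 1.37) and 0.732 (0.456 to 1.17), no longer apart from 1, and that of arminin_3a was 2.63 (1.82 to 3.84). Arminin entries resemble each other in name and may share sequence, so the split of counts among them is uncertain. The 5 unnamed arminin entries had 46 counts or fewer each.

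**Figure D3:**
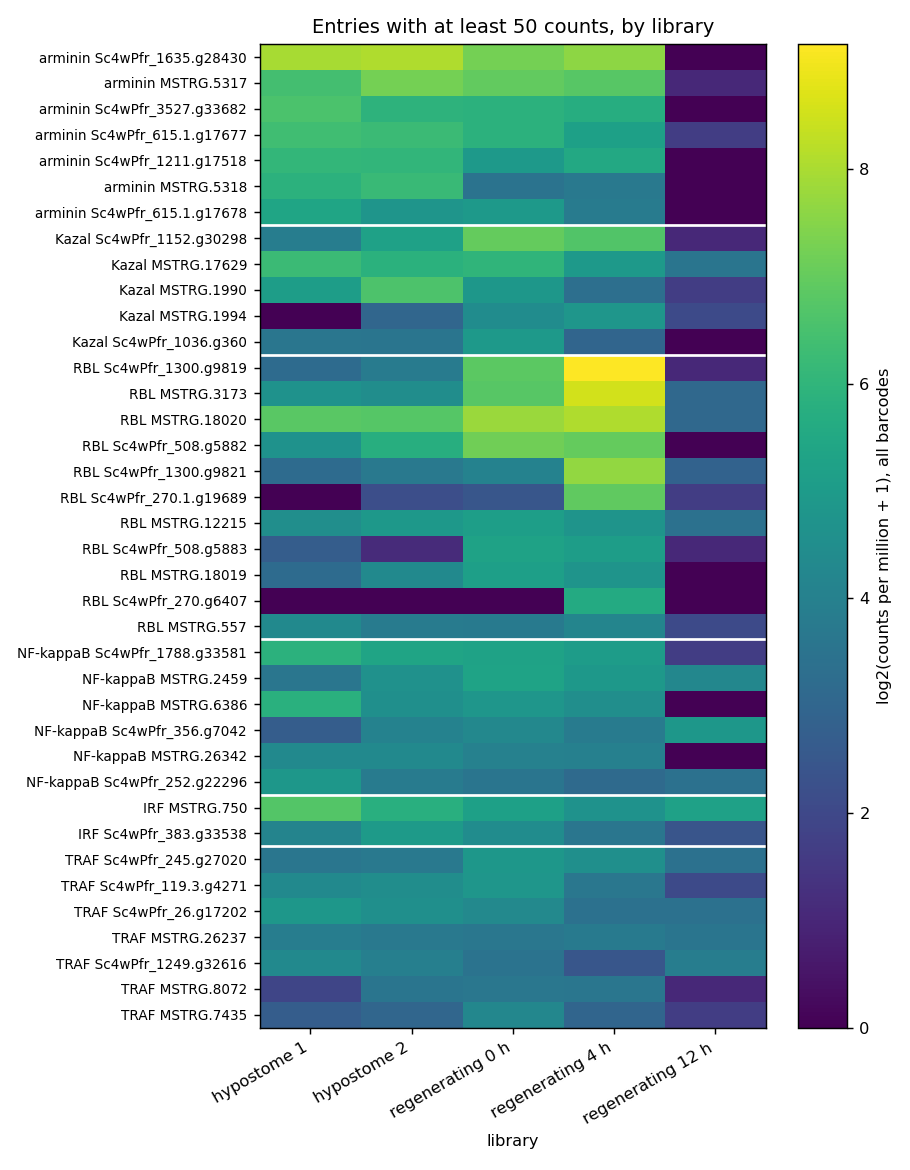
Level of the 38 entries with at least 50 counts in each library, as log2 of CPM plus 1 over all barcodes; RBL stands for rhamnose-binding lectin and white lines part the classes. The brightest cell of the 4 h column is the rhamnose-binding lectin Sc4wPfr_1300.g9819 (574 CPM), and 5 of the 7 arminins have 0 counts at 12 h.

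Periculins were close to the detection limit. Their 5 entries had 15 counts in all, 3 in hypostome 1, 0 in hypostome 2, 8 (0 h), 3 (4 h) and 1 (12 h). The best covered was periculin_3 (MSTRG.573) with 1, 0, 4, 1 and 0 counts. By library totals the 4 h level was 0.218 (0.0373 to 0.908) of that at 0 h, from 3 against 8 counts. The interval included 1 in barcodes of at least 200 genes, at a ratio of 0.335 (0.0520 to 1.72), and without MSTRG.22171, at 0.296 (0.0506 to 1.23).

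Kazal-type inhibitors stood at 138 and 212 CPM in the hypostome libraries (175 ± 52.8, SD, n = 2), 275 (0 h), 182 (4 h) and 19.2 (12 h), and their entries did not move together. The entry described as Kazal inhibitor 5 precursor (Sc4wPfr_1152.g30298) had 13.8 and 37.2 CPM in the hypostome libraries, 128 (0 h), 102 (4 h) and 1.07 (12 h). Both hypostome libraries were below both early regenerating ones and above 12 h. In barcodes with at least 200 genes its log2 difference, hypostome minus regenerating, was -3.81 ± 1.16 (SE, edgeR adjusted p = 0.341) with 12 h in the fit. Without 12 h it was -4.28 ± 0.49 (edgeR adjusted p = 0.0340) in those barcodes. Over all barcodes, the scope of the CPM above, it was -2.21 ± 0.42 (edgeR adjusted p = 0.0438) without 12 h.

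The other Kazal entries did not share one order. Kazal inhibitor 2 precursor (MSTRG.1990) was highest in hypostome 2, at 97.2 CPM, against 33.1 in hypostome 1, 27.9 (0 h), 9.21 (4 h) and 2.14 (12 h); its 2.94-fold difference between the hypostome libraries was the highest among the 12 members with at least 50 counts over both. Kazal inhibitor 1 (MSTRG.17629) stood at 74.4 and 56.4 CPM in the hypostome libraries, 62.8 (0 h), 29.9 (4 h) and 10.7 (12 h). The entry described as a hepatopancreas Kazal-type inhibitor (MSTRG.1994) had 0 and 7.20 CPM in the hypostome libraries, 20.9 (0 h), 27.3 (4 h) and 3.21 (12 h), so that both hypostome libraries were below 0 h and 4 h, as for the Kazal inhibitor 5 precursor. The class ratio of 4 h to 0 h was 0.662 (0.581 to 0.755) by library totals. It was 1.08 (0.940 to 1.24) with TMM factors over barcodes of at least 200 genes. Kazal inhibitor 3 precursor (Sc4wPfr_1036.g360) had 11.03 and 10.8 CPM in the hypostome libraries, 29.8 (0 h), 7.002 (4 h) and 0 (12 h), and so was above both hypostome libraries at 0 h only.

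Rhamnose-binding lectins were the most abundant of the 8 families at 0 h and 4 h, and stood below the arminins in both hypostome libraries. Summed over 30 entries they stood at 287 and 289 CPM in the hypostome libraries (288 ± 1.85, SD, n = 2), 753 (0 h), 1830 (4 h) and 88.7 (12 h). The 4 h level was 2.43-fold that at 0 h (2.28 to 2.59, counting error only), and 3.30-fold (3.10 to 3.52) once MSTRG.22171 was left out before scaling. With TMM factors over barcodes of at least 200 genes it was 3.94-fold (3.69 to 4.22). The order hypostome, 0 h, 4 h held within barcodes of under 200 genes (292 and 302, 637 and 1746 CPM), of 200 to below 500 genes (377 and 381, 799 and 1910 CPM) and of at least 500 genes (241 and 206, 686 and 1527 CPM). The 11 named entries held 97.4% of the family's counts.

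A group of 4 lectins made up most of the difference between 0 h and 4 h. Sc4wPfr_1300.g9819 had 3, 11, 182, 1558 and 1 counts in the order above, or 8.27 and 13.2 CPM in the hypostome libraries, 115 (0 h), 574 (4 h) and 1.07 (12 h). Sc4wPfr_1300.g9821, which shares the scaffold, had 8.27 and 12.0 CPM in the hypostome libraries, 15.8 (0 h), 202 (4 h) and 6.41 (12 h). Both were highest at 4 h, and at 0 h Sc4wPfr_1300.g9819 stood far above its hypostome levels while Sc4wPfr_1300.g9821 stood close to them. Sc4wPfr_270.1.g19689 had 0, 3, 7, 329 and 2 counts, which is 121 CPM at 4 h and at most 4.44 CPM elsewhere. Sc4wPfr_270.g6407 was seen at 4 h alone, with 128 counts in 118 barcodes (47.2 CPM) and 0 counts in the other 4 libraries, where 3 counts would have been 8.27, 3.60, 1.90 and 3.21 CPM.

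The ratio of 4 h to 0 h was 4.98 (4.27 to 5.84) for Sc4wPfr_1300.g9819, 12.8 (8.56 to 19.9) for Sc4wPfr_1300.g9821 and 27.3 (13.1 to 68.5) for Sc4wPfr_270.1.g19689, with 95% conditional binomial intervals that cover counting error only. Sc4wPfr_270.g6407 was at least 24.8-fold higher at 4 h, taking 3 counts at 0 h as the floor. A 4 h barcode with 8272 counts held 194 of the 1558 counts of Sc4wPfr_1300.g9819 and 76 of the 549 of Sc4wPfr_1300.g9821. Without the barcode of each library that held most counts of the entry, the ratios were 4.64, 12.5 and 36.9, and at least 24.4-fold.

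By the size rule of 4-fold between 4 h and 0 h, applied to entries with at least 50 counts over both libraries in barcodes of at least 200 genes, 4 of 33 members were higher at 4 h, all of them these lectins, and 1 was lower, the Kazal inhibitor 3 precursor. Over all entries, 47 of 5570 were higher (0.844%) and 27 were lower (0.485%). The median log2 ratio was -0.63 over all entries and -0.27 over the 33 members. TMM factors moved the median of all entries to 0.09, and then 5 members were higher against 1.51% of all entries, the fifth being the lectin MSTRG.3173 at a ratio of 5.44, and 0 were lower, with the Kazal inhibitor 3 precursor at a ratio of 0.286 (0.126% of all entries were lower). For comparison, hypostome 2 against hypostome 1, the one pair of libraries with the same label, gave no member past 4-fold among the 12 with enough counts over all barcodes, and 34 of 2327 entries (1.46%) in either direction. With 1 library per time point there is no replicate check of these ratios.

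**Figure D4:**
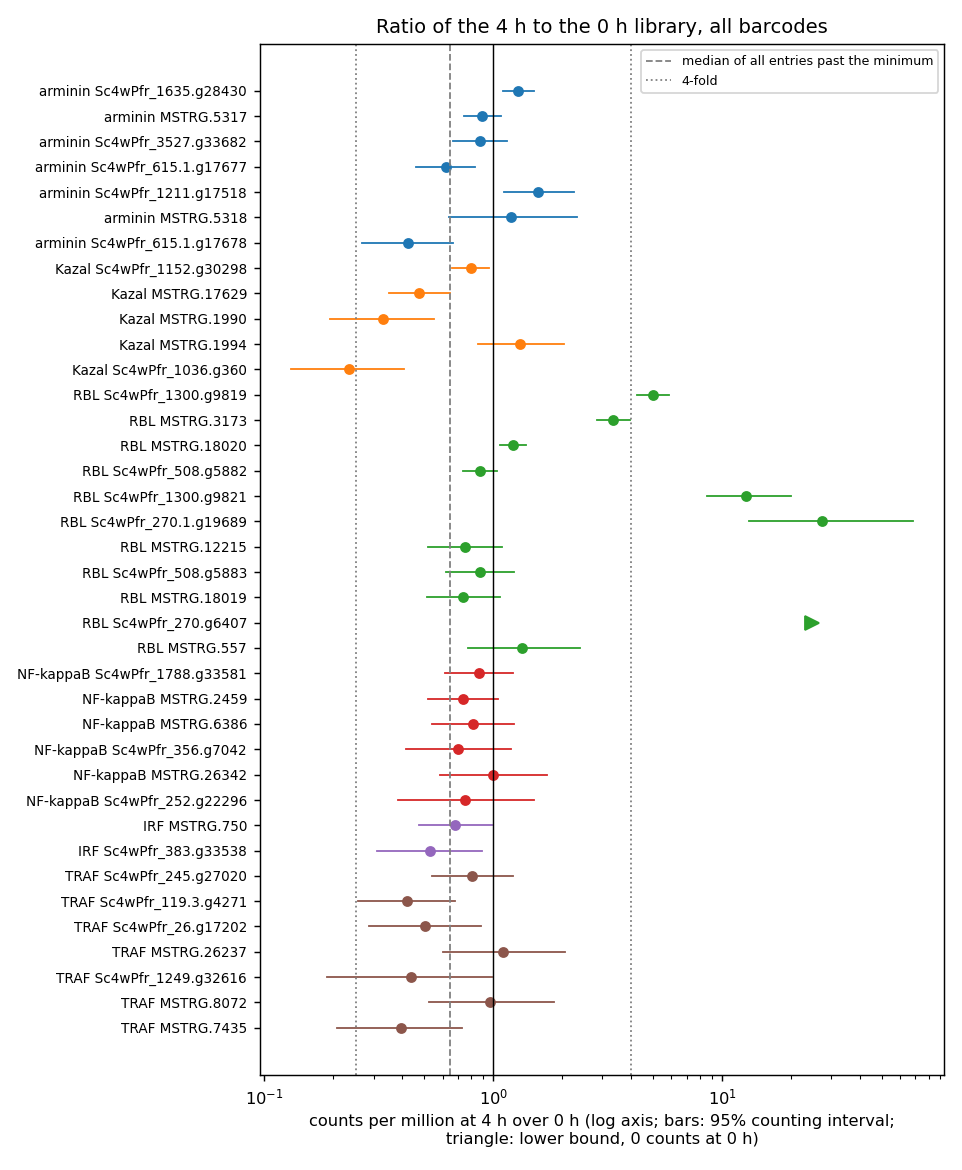
Ratio of CPM at 4 h over 0 h for the 38 entries with at least 50 counts (log axis; bars are 95% counting intervals, the triangle is a lower bound). The dashed line is the median of all entries past the count minimum and the dotted lines mark 4-fold. The 4 points beyond the right dotted line are rhamnose-binding lectins at 4.98, 12.8, 27.3 and at least 24.8, and the Kazal inhibitor 3 precursor lies beyond the left one.

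Other named lectins had lower ratios between these times. In CPM, however, MSTRG.3173 differed by more than Sc4wPfr_1300.g9821, Sc4wPfr_270.1.g19689 or Sc4wPfr_270.g6407. MSTRG.3173 had 24.8 and 21.6 CPM in the hypostome libraries, 110 (0 h), 369 (4 h) and 7.48 (12 h), a ratio of 3.34 (2.84 to 3.95) between 4 h and 0 h with no more than 6 counts in any 4 h barcode. MSTRG.18020 had 113 and 106 CPM in the hypostome libraries, 219 (0 h), 267 (4 h) and 7.48 (12 h), a ratio of 1.22 (1.07 to 1.39). Sc4wPfr_508.g5882 had 24.8 and 52.8 CPM in the hypostome libraries, 146 (0 h), 128 (4 h) and 0 (12 h), and its ratio of 0.877 (0.740 to 1.04) did not differ from 1 beyond counting error. The other named lectins, MSTRG.12215, Sc4wPfr_508.g5883, MSTRG.18019 and MSTRG.557, had ratios between 0.740 and 1.34, all with intervals that include 1. With TMM factors over barcodes of at least 200 genes the ratios were higher. They were 1.96 (1.71 to 2.25) for MSTRG.18020, 1.43 (1.19 to 1.71) for Sc4wPfr_508.g5882 and 2.18 (1.25 to 3.94) for MSTRG.557. The intervals of MSTRG.12215, Sc4wPfr_508.g5883 and MSTRG.18019 included 1.

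The tissue comparison sets the tip of the head against tissue that regenerates it. The edgeR quasi-likelihood test over all 5 libraries called 0 of 3022 entries (0%) at an adjusted p of 0.05, and 332 had an unadjusted p under 0.05. Of the 14 members tested, 0 were called and 3 had an unadjusted p under 0.05, and DESeq2 called 103 entries (3.41%) and 1 member. That member was the lectin Sc4wPfr_1300.g9819, with a log2 difference of -6.10 ± 1.99 (SE; adjusted p = 0.374) in edgeR and an adjusted p of 0.0102 in DESeq2. The median log2 difference was -0.40 over the 14 members and 0.01 over all entries tested.

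Leaving out the 12 h library changed these counts. edgeR then called 180 of 7732 entries (2.33%), 108 higher and 72 lower in the hypostome, and 3 of 37 members, all 3 lower in the hypostome against 0.931% of all entries. The median log2 difference was then -0.56 over the 37 members and -0.06 over all entries tested. These were the Kazal inhibitor 5 precursor given above and the lectins Sc4wPfr_508.g5882, at -3.18 ± 0.53 (adjusted p = 0.0440), and MSTRG.18020, at -2.25 ± 0.41 (adjusted p = 0.0473). Over all barcodes, edgeR without the 12 h library called 183 of 8701 entries (2.1%) and 4 of 36 members. The arminin_3b MSTRG.5318 was higher in the hypostome, against 1.61% of all entries called higher. The Kazal inhibitor 5 precursor, at -2.21 ± 0.42 (adjusted p = 0.0438), and the lectins Sc4wPfr_1300.g9819, at -5.30 ± 1.01 (adjusted p = 0.0448), and Sc4wPfr_508.g5883, at -3.94 ± 0.60 (adjusted p = 0.0226), were lower, against 0.494% of all entries. These fits set 2 hypostome libraries against 2 libraries of different times.

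The last of these lectins rested on few barcodes. Sc4wPfr_508.g5883 had 2, 1, 60, 90 and 1 counts, or 5.51 and 1.20 CPM in the hypostome libraries, 38.03 (0 h), 33.2 (4 h) and 1.07 (12 h). A barcode at 0 h held 29 of its 60 counts and a barcode at 4 h held 61 of its 90. The nematocyte lineage marker list, of which 22 of 22 entries were detected, was higher in the hypostome libraries (9485 and 4356 CPM) than at 0 h (3596 CPM) and 4 h (2971 CPM), and 436 CPM at 12 h, and its part in this difference was not tested.

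The cells that hold these transcripts were described by clustering the 310 barcodes with at least 500 genes, with all member entries left out of the clustering. A limit of 500 genes was chosen after the data were seen, because at 200 genes 1 cluster alone could be named. Of 7 clusters, cluster 1 (45 barcodes) was nematocyte lineage-like, cluster 2 (41) endodermal epithelial-like, led by cathepsin L1-like entries, cluster 3 (49) gland-like and cluster 5 (22) neuron-like, by markers of each class; the rest stayed unnamed. Nematocytes are the stinging cells of cnidarians, endodermal epithelial cells line the gut, and gland cells secrete digestive enzymes. Names rest on rebuilt clusters, all 13 barcodes of 12 h fell in cluster 0, and no doublet calling was done.

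Among barcodes with at least 500 genes, arminins were concentrated in the endodermal epithelial-like cluster. These barcodes held 376 of the 2928 arminin counts of the 5 libraries. Of the 376, 81.1% lay in that cluster, while it held 9.99% of all counts of the clustered barcodes. The level there was 2689 CPM, or 1961 CPM without the barcode with most arminin counts, against 47.1 to 147 CPM in the other 6 clusters. By library the cluster stood at 1938 CPM in hypostome 1 (6 barcodes), 1679 in hypostome 2 (15), 2260 at 0 h (9) and 4426 at 4 h (11). Single barcodes weighed on these values: without the barcode with most arminin counts in each library they were 302, 1260, 1603 and 2007 CPM. All 7 named arminins had most of their clustered counts there, for example 120 of 139 for arminin_3b (Sc4wPfr_1635.g28430) and 77 of 94 for arminin_1c (MSTRG.5317). Clusters of barcodes with at least 200 genes did not show this concentration. Arminins stood at 96.9 CPM in the nematocyte lineage-like cluster of that set and at 360 to 575 CPM in its unnamed clusters.

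Kazal-type inhibitors followed the same cluster, with 63.4% of 112 counts and 626 CPM, against 23.5 to 127 CPM elsewhere. Kazal inhibitor 1 (MSTRG.17629) had 41 of 56 counts there and the Kazal inhibitor 5 precursor (Sc4wPfr_1152.g30298) 25 of 38. The class had 71 counts in that cluster, so its level rests mainly on this pair of entries. MSTRG.1990, MSTRG.1994 and Sc4wPfr_1036.g360 had 5, 5 and 7 counts over all 7 clusters, too few to place them. The gland-like cluster stood at 67.6 CPM. In clusters of barcodes with at least 200 genes, the class stood at 46.5 CPM in the nematocyte lineage-like cluster and at 112 to 276 CPM in the unnamed ones.

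Rhamnose-binding lectins divided among clusters by entry. The family stood at 2203 CPM in cluster 6, 1157 CPM in the gland-like and 1137 CPM in the nematocyte lineage-like cluster. In the other 4 clusters it stood at 162 to 343 CPM. Cluster 6 was unnamed, with 4 ectodermal epithelial markers at least 4-fold higher in it. Cluster 4, also unnamed, had 6 such markers, and the family stood at 343 CPM there. A single 4 h barcode of 8272 counts held 288 of the 542 lectin counts of cluster 6, which stood at 1068 CPM without it, no higher than the gland-like cluster. Sc4wPfr_1300.g9819 had 275 of 353 counts in cluster 6 and Sc4wPfr_1300.g9821 had 94 of 107, or 81 of 159 and 18 of 31 without that barcode. In that cluster the family stood at 868 (0 h) and 3843 (4 h), or 1494 CPM at 4 h without that barcode. MSTRG.18020 was shared between cluster 6 (68 counts) and the gland-like cluster (45 of 157), as was Sc4wPfr_508.g5882 (37 and 20 of 77).

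Neighbouring lectin entries could have their counts in different clusters. Sc4wPfr_508.g5883 had 115 of 117 counts in the nematocyte lineage-like cluster, where Sc4wPfr_508.g5882, the preceding number on the same scaffold, had 10 of 77. The 115 counts came from 5 barcodes, 1 of which held 61 and another 29. MSTRG.557, described as an L-rhamnose-binding lectin CSL2-like, also led in the nematocyte lineage-like cluster (33 of 56 counts, in 15 barcodes) and reached 12 counts in the unnamed cluster 4, which was led by entries described as centrosomal 290 kDa-like and arrestin domain-containing. Of the 128 counts of Sc4wPfr_270.g6407, the lectin seen at 4 h alone, 4 lay in clustered barcodes, so its cells were not resolved.

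**Figure D5:**
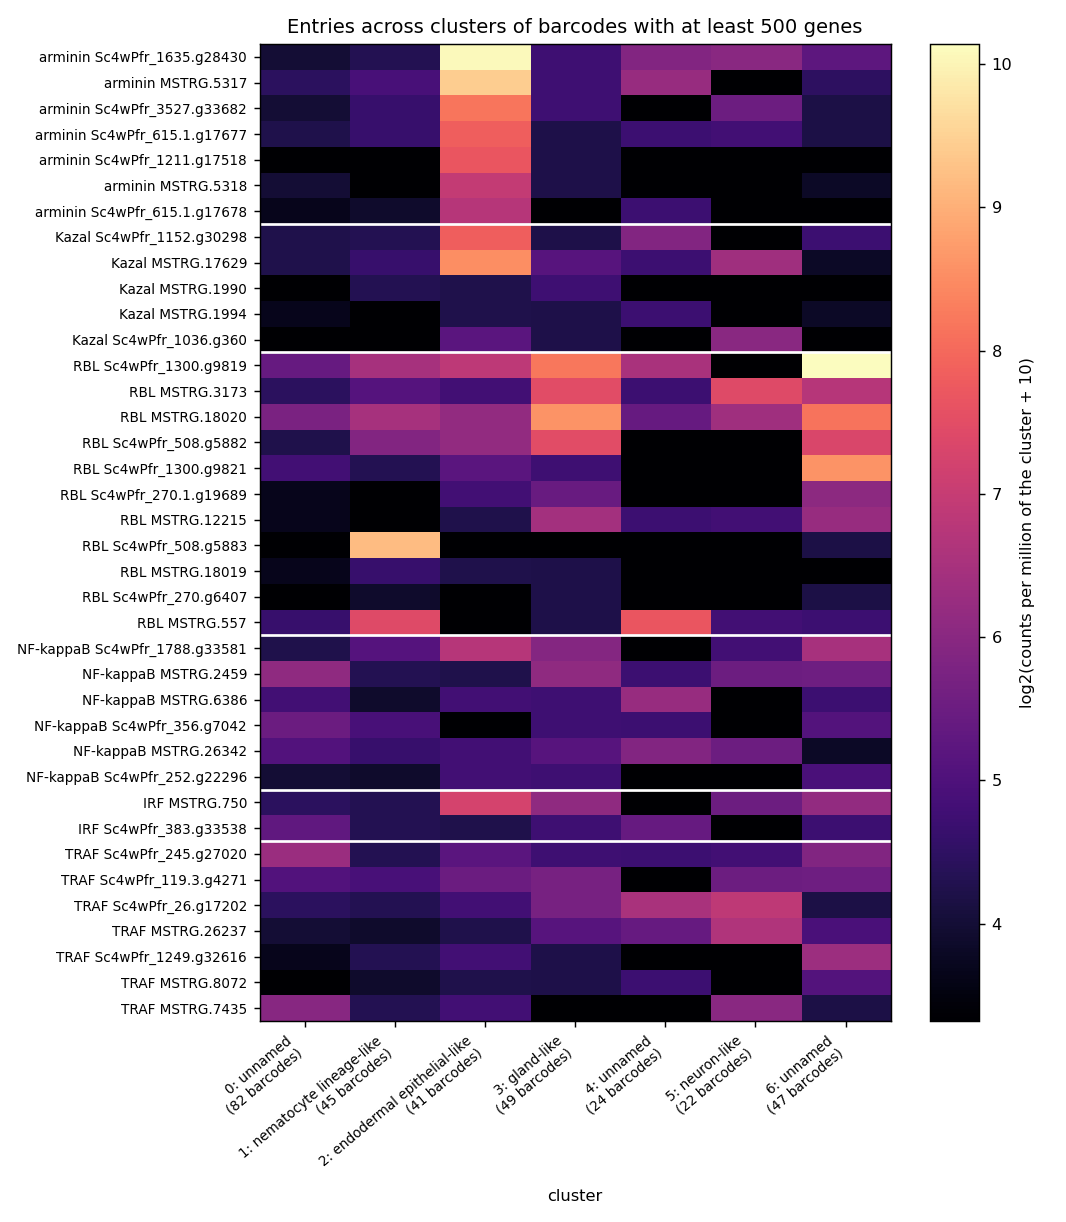
Level of the 38 entries in 7 clusters of the 310 barcodes with at least 500 genes, as log2 of CPM plus 10; RBL stands for rhamnose-binding lectin. Arminins are bright in cluster 2 (2689 CPM as a family, against 147 CPM or less elsewhere), whereas lectins split between clusters 1, 3 and 6 (in cluster 6, 288 of 542 lectin counts lie in 1 barcode) and the signalling entries are spread thinly.

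Toll-like receptors were barely detected, and the NF-kappaB-related, IRF and TRAF classes each stood between 50.9 and 266 CPM in every library. Toll-like receptors had 2 counts in all, both of an entry described as Toll-like receptor 2 (MSTRG.21328) at 4 h, and the other entry had 0. NF-kappaB-related entries stood at 176 and 148 CPM in the hypostome libraries (162 ± 20.3, SD, n = 2), 167 (0 h), 128 (4 h) and 77.0 (12 h). For NF-kappaB-related entries the ratio of 4 h to 0 h was 0.764 (0.649 to 0.900) by library totals. With TMM factors over barcodes of at least 200 genes it was 1.24 (1.05 to 1.48), so its direction depended on the scaling. For IRFs these ratios were 0.658 (0.512 to 0.846) and 1.07 (0.823 to 1.39). IRFs and TRAFs lay within the range of the other libraries at 12 h. IRFs stood at 149 and 108 CPM in the hypostome libraries (128 ± 28.9, SD, n = 2), 77.3 (0 h), 50.9 (4 h) and 87.7 (12 h), and TRAFs at 223 and 244 CPM (234 ± 14.4, SD, n = 2), 266, 161 and 248 CPM.

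The NF-kappaB-related group mixes activators and repressors. Entries described as NF-kappaB essential modulator, the scaffold of the kinase complex that frees NF-kappaB, stood at 57.9 and 39.6 CPM in the hypostome libraries, 38.03 (0 h), 32.8 (4 h) and 2.14 (12 h) (Sc4wPfr_1788.g33581) and at 55.1, 22.8, 27.3, 22.1 and 0 CPM (MSTRG.6386). The p105 subunit of NF-kappaB itself (MSTRG.26342) stood at 19.3 and 19.2 CPM in the hypostome libraries, 15.2 (0 h), 15.1 (4 h) and 0 (12 h). By library totals it was nearly level across the first 4. The inhibitor (Sc4wPfr_252.g22296) had 27.6 and 13.2 CPM in the hypostome libraries, 10.8 (0 h), 8.11 (4 h) and 9.62 (12 h). The NF-kappaB repressing factor (MSTRG.2459), of which a second row under the same identifier had 44 counts, had 11.03 and 24.0 CPM in the hypostome libraries, 38.7 (0 h), 28.4 (4 h) and 18.2 (12 h). The entry described as NF-kappaB activating-like (Sc4wPfr_356.g7042) was highest at 12 h, at 27.8 CPM, against 5.51 and 15.6 in the hypostome libraries, 18.4 (0 h) and 12.9 (4 h).

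Among IRFs, the best covered was an IRF 1-like entry (MSTRG.750) at 105 and 54.0 CPM in the hypostome libraries, 36.1 (0 h), 24.7 (4 h) and 37.4 (12 h). Both hypostome libraries lay above all 3 regenerating ones over all barcodes. In barcodes with at least 200 genes, the edgeR test over all 5 libraries gave a log2 difference of 0.72 ± 0.57 (SE) with an adjusted p of 0.807. Without the 12 h library the edgeR difference in those barcodes was 0.45 ± 0.38 with an adjusted p of 0.552. Over all barcodes without that library it was 1.14 ± 0.33 with an edgeR adjusted p of 0.135. A second IRF 1-like entry (Sc4wPfr_383.g33538) stood at 16.5 and 31.2 CPM in the hypostome libraries, 20.9 (0 h), 11.1 (4 h) and 4.28 (12 h), with overlap between the tissues.

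The TRAF family was the widest and thinnest. Of 103 entries, 80 were detected and 33 had at least 10 counts, and the 7 named entries held 42.0% of the counts. TRAF adaptors carry signals from TNF and Toll-like receptors to kinases, each number marking a family member of vertebrates. An entry described as TRAF 6-like (Sc4wPfr_245.g27020) had 11.03 and 12.0 CPM in the hypostome libraries, 27.9 (0 h), 22.5 (4 h) and 9.62 (12 h), both hypostome libraries below 0 h and 4 h. A TRAF 4 entry (Sc4wPfr_26.g17202) had 27.6 and 22.8 CPM in the hypostome libraries, 19.0 (0 h), 9.58 (4 h) and 9.62 (12 h), the opposite order. TRAF 3 (Sc4wPfr_119.3.g4271) had 19.3 and 21.6 CPM in the hypostome libraries, 27.3 (0 h), 11.4 (4 h) and 3.21 (12 h).

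The other 4 named TRAF entries, a TRAF 4 (MSTRG.26237), a TRAF 2-like (Sc4wPfr_1249.g32616), a TRAF 6A-like (MSTRG.8072) and a TRAF 5-like (MSTRG.7435), stood between 1.07 and 19.3 CPM in every library. In the clusters, 17 of the 23 counts of the TRAF 2-like entry lay in cluster 6, and 18 of the 27 of the TRAF 5-like entry in cluster 0, which was led by entries of DNA replication such as proliferating cell nuclear antigen. The class ratio of 4 h to 0 h was 0.606 (0.529 to 0.695) by library totals, 0.824 (0.719 to 0.944) without MSTRG.22171 and 0.990 (0.859 to 1.14) with TMM factors over barcodes of at least 200 genes, so a lower TRAF level at 4 h was seen by library totals and not with TMM factors.

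The 12 h library was below 0 h in 4 of the 6 classes with at least 50 counts over both libraries. Over all barcodes, arminins were 65.3-fold lower than at 0 h (31.5 to 163), Kazal-type inhibitors 14.3-fold (8.94 to 24.4), rhamnose-binding lectins 8.49-fold (6.79 to 10.7) and NF-kappaB-related entries 2.17-fold (1.67 to 2.86). IRFs were at a ratio of 1.13 (0.846 to 1.51) and TRAFs at 0.932 (0.790 to 1.10), both intervals including 1. In barcodes of at least 200 genes, arminins were 13.5-fold lower (3.71 to 111) from 2 counts at 12 h, Kazal-type inhibitors 15.1-fold (2.69 to 597) from 1 count and lectins 4.72-fold (2.48 to 10.3) from 9 counts, and NF-kappaB-related entries were at a ratio of 1.06 (0.501 to 1.98). Of the 18 members with enough counts, 13 were at least 4-fold lower and 0 higher, but 31.7% of all 5299 entries were also at least 4-fold lower and 26.7% at least 4-fold higher, so the 12 h library differed from 0 h throughout. Within barcodes of at least 200 genes, 64 of them at 12 h, 1 of 14 members was at least 4-fold lower (5.77% of 3087 entries) and 0 were higher (4.63%); 3 counts at 12 h are worth 54.3 CPM there, so few members could be seen to be 4-fold lower. Marker sums over all barcodes were also lower at 12 h than at 0 h, at 566 against 17000 CPM for endodermal epithelial, 1774 against 9089 CPM for gland and 1592 against 4712 CPM for ectodermal epithelial entries, and their part in these ratios was not tested.

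Of the entries with at least 10 counts, 8 of 33 TRAF, 2 of 9 NF-kappaB-related, 1 of 6 IRF, 1 of 15 rhamnose-binding lectin, 0 of 10 arminin and 0 of 6 Kazal entries were highest at 12 h, against 40.6% of all 21608 entries. In the deposited barcodes of 12 h, 3 counts are worth 3.21 CPM, so arminin_3b (Sc4wPfr_1635.g28430), with 0 counts, was at least 46.6-fold lower than at 0 h.

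Other innate defence genes were taken from a list of 207 entries in 8 groups: Toll and interleukin-1 pathway kinases, JNK and p38 kinases, NOD-like receptors, nucleic acid sensors, complement and perforin, other lectins, bactericidal proteins and chitinases, and the TNF family. Of these, 171 had a count, 12 could be tested between tissues over all 5 libraries, and edgeR and DESeq2 each called 0, with 1 entry at an unadjusted edgeR p under 0.05. The 3 with most counts were chitinases, enzymes that degrade chitin, and a perforin-domain protein, a type that forms pores in membranes. The chitinase3_1 entry Sc4wPfr_351.g11221 had 102, 608, 1135, 1230 and 48 counts in the order above, and Sc4wPfr_351.g11220 of the same description had 44, 332, 790, 959 and 10. The entry described as MAC perforin domain-containing (Sc4wPfr_536.g2789) had 114, 485, 494, 374 and 9 counts.

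Without the 12 h library, edgeR tested 26 entries of this list and called 1 (against 2.33% of all entries), an endochitinase B (Sc4wPfr_113.1.g28303), lower in the hypostome by a log2 difference of -2.18 ± 0.42 (adjusted p = 0.0481). Over all barcodes without 12 h it tested 38 and called 4 (against 2.1% of all entries), all entries described as macrophage mannose receptor 1-like, a C-type lectin that binds sugars on microbes in vertebrates, and all higher in the hypostome. They were MSTRG.2255 at 91.0 and 193 CPM in the hypostome libraries against 17.1 (0 h), 2.58 (4 h) and 2.14 (12 h), and 3 entries of the scaffold Sc4wPfr_118. Sc4wPfr_118.g25038 had 60.6 and 56.4 CPM in hypostome 1 and 2, against 0 (0 h), 0 (4 h) and 2.14 (12 h). These 4 were named after their values were seen, and 16 mannose receptor and other lectin entries were tested in that fit.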

How the data were processed

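Each deposited table gives raw counts for every entry in every cell barcode, which the authors did not normalize. Per the submitters' processing notes kallisto 0.46.1 was used; its role, the genome build, the annotation, the choice of barcodes and whether counts are molecules or reads are not given in the sources used here, so intervals cover counting error only and may be too narrow. The tables pair IDs with descriptions; 20 members share an ID with another row. Members and lists were chosen with earlier results of these data known; list patterns were adapted to the tables' spelling.

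Counts were summed per library over all barcodes (levels) or those with at least 200 genes (tests). Tissue was tested with edgeR 4.0.16 (R 4.3.3; quasi-likelihood, TMM, filterByExpr, Benjamini-Hochberg over all entries) and DESeq2 1.42.0. The SE given with an edgeR difference is the size of the difference divided by the square root of the test's F statistic. It is not an estimate printed by the fit. Summed counts, once thinned to 55274 per library, were 1 alternative. Time ratios have 1 library each and no test; counts under 3 were raised to 3. scanpy 1.11.5 clustered barcodes (2000 variable genes, 30 components, 15 neighbours, Leiden resolution 0.8). The edgeR fit and the ratio intervals were tested on simulated counts, and DESeq2 and the clustering were not. Named are members with at least 50 counts and, in classes without one, the member with most; of the other list, entries past the edgeR threshold, otherwise the 3 with most counts. No sequence of the entries was at hand, so none is shown.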

Additional observations from a re-analysis of the deposited data

How the results depend on the processing

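No paired analysis was possible because no regenerating library has a second sample and the hypostome numbers pair with nothing. Between tissues, 0 entries called became 103 with DESeq2, 5 with library totals, 10 with no gene filter, 180 without the 12 h library and 183 without it over all barcodes, and 0 members became 1, 0, 0, 3 and 4. Leaving out 1 library at a time, the calls ranged from 0 to 180 entries and from 0 to 3 members. The log2 differences of 5 members (MSTRG.5318, Sc4wPfr_1152.g30298, Sc4wPfr_1300.g9819, Sc4wPfr_508.g5882 and MSTRG.18020) kept their sign in all 54 alternatives that tested them, and 7 of these passed the threshold. Each of the 5 passed it in some of these same alternatives, so their shared sign is no independent check. Sc4wPfr_508.g5883 also passed it over all barcodes without 12 h and was not followed here. Between 4 h and 0 h, 74 entries past 4-fold became 241 at a minimum of 20 counts, 38 at 100 counts, 1184 at 2-fold and 36 in barcodes with at least 500 genes; 5 members became 10 at 2-fold and 2 in barcodes with at least 500 genes. Between 12 h and 0 h, 321 entries became 709 at 20 counts, 910 at 2-fold, 3094 over all barcodes, 3192 over all barcodes without MSTRG.22171 and 99 in barcodes with at least 500 genes; 1 member became 2, 7, 13, 13 and 0. The cause of these changes was not tested.

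Over barcodes with at least 200 genes, the summed CPM of these classes moved beyond the SD of the hypostome pair (in the hypostome libraries) or the counting interval (in the others): arminin to 439 (hypostome 1), 473 (hypostome 2) and 36.2 (12 h), periculin to 0 (12 h), Kazal to 143 (hypostome 2), rhamnose-binding lectin to 278, 256 and 163 (hypostome 1, hypostome 2 and 12 h), NF-kappaB to 132, 173 and 181, IRF to 87.8, 139 and 54.3 and TRAF to 293, 356 and 326 in the same libraries. Without MSTRG.22171, arminin moved to 835, 888, 567 and 747 (hypostome 1, hypostome 2, 0 h and 4 h), rhamnose-binding lectin to 339, 351, 874 and 2886, NF-kappaB to 209, 179, 194 and 202 and TRAF to 264, 296, 309 and 254 in the same libraries, Kazal to 319 and 287 (0 h and 4 h) and IRF to 80.2 (4 h). The other 44 class levels under these 2 settings stayed within those limits. Depth limits the periculins, the Toll-like receptors and most TRAF entries, and in the 12 h library every entry under 3.21 CPM.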

Other observations

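A few members of low count had most of their counts at 12 h and were chosen after their values were seen. Among entries with at least 10 counts, this held for 3 of 33 TRAF, 1 of 9 NF-kappaB-related, 1 of 6 IRF and 1 of 15 lectin entries. It held for 0 of 10 arminin and 0 of 6 Kazal entries, against 5591 of all 21608 entries, so it was not particular to members. A rhamnose-binding lectin (Sc4wPfr_728.g2220) had 2, 0, 0, 3 and 20 counts in hypostome 1, hypostome 2, 0 h, 4 h and 12 h. An IRF 1-like entry (Sc4wPfr_1045.g32638) had 5, 2, 2, 8 and 28 counts. A pair of TRAF 5-like entries had 0, 1, 1, 3 and 21 counts (Sc4wPfr_119.3.g4251) and 0, 2, 0, 1 and 11 counts (Sc4wPfr_13.g18546). An entry described as NF-kappaB inhibitor-interacting Ras 1 (MSTRG.18911), a small GTPase that binds the NF-kappaB inhibitors in mammals, had 0, 1, 5, 2 and 9 counts.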
